A study of Homo sapiens with 30 samples.

Results

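U251 glioblastoma cells that had spent 14 days in IFN-γ and then 14 days without it (D28WO) were compared with U251 cells kept in IFN-γ for the full 28 days (D28). The comparison holds 6 of the 30 RNA sequencing libraries of the series, 3 of D28WO and 3 of D28, and 23690 of the 61471 genes in the deposited table, chosen by a mean of at least 0.5 TPM (transcript abundance scaled to gene length and to a fixed library total) over those 6 libraries. Both groups are U251-MG cells labelled as wild type, without a transgene or a deletion, and both received IFN-γ for the first 14 days, after which cultures were divided between the 2 arms. The other U251 groups, each of 3 libraries, are cells without IFN-γ (Untreated, put at day 3 by the labels and at the start by the study's methods) and cells after 3 (D3) or 14 (D14) days of it, and their levels are given for orientation. The labels give 1 µL/mL and, in the protocol, 1 µg/mL as the dose, and the study's methods give a lower one, so the dose is uncertain. The label title of the continued arm reads U251-D28W, and its group was taken from the label entry that says treatment was continued. Replicates are described as separately maintained cultures. U251-MG is an established human glioma line, was not authenticated by the study, and is 1 line without immune cells, so it models the response of tumor cells alone.

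IFN-γ binds the receptor chains IFNGR1 and IFNGR2, and the kinases JAK1 and JAK2 then phosphorylate transcription factors of the STAT family. Their dimers bind a short palindrome, the gamma-activated site (GAS), and drive a first wave of genes that includes the transcription factor IRF1. IRF1, and complexes of STAT proteins with IRF9, bind the interferon-stimulated response element (ISRE) of later genes, while the co-activator CIITA switches on the class II antigen presentation genes. In glioma cells the pathway is known for antigen presentation, for the chemokines that attract T cells, and for inhibitory molecules such as PD-L1 and IDO1.

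The promoter windows of 4 chemokine genes that fell after withdrawal and of 2 interferon genes that stayed below the threshold are shown. They were printed because the genes differ in what they did. Each window spans 250 bases before to 50 after a RefSeq gene start (GRCh38.p14, read 5′ to 3′ on the gene's strand). Capitals mark letters that match TTCNNNGAA (GAS), GAAANNGAA (ISRE-type) or GGNNNTTCC (kappaB-type, the kind of site bound by NF-kB), each searched on both strands and free to overlap.
CXCL9, chr4:76007460-76007759, minus strand: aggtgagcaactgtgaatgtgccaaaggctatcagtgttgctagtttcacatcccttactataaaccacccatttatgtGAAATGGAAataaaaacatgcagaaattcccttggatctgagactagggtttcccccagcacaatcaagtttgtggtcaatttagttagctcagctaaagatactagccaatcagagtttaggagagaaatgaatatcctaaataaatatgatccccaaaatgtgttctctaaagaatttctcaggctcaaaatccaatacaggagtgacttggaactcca
CXCL10, chr4:76023448-76023747, minus strand: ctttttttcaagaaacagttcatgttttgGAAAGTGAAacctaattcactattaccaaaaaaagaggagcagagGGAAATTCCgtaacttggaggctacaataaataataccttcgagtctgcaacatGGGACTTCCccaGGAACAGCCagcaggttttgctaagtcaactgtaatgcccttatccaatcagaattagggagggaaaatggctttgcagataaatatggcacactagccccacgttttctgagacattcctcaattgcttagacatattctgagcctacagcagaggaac
CXCL11, chr4:76036021-76036320, minus strand: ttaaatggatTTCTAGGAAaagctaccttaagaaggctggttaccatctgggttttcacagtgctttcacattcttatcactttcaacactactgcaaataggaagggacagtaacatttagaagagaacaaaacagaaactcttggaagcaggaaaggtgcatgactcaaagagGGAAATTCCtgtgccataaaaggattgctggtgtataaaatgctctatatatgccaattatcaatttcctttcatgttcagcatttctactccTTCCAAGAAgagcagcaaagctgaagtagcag
CXCL8, chr4:73740319-73740618, plus strand: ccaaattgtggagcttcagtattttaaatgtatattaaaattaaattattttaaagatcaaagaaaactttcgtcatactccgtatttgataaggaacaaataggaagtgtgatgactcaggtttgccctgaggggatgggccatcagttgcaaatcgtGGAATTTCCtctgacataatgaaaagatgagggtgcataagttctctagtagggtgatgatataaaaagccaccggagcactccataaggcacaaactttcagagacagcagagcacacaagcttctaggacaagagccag
IRF1, chr5:132490724-132491023, minus strand: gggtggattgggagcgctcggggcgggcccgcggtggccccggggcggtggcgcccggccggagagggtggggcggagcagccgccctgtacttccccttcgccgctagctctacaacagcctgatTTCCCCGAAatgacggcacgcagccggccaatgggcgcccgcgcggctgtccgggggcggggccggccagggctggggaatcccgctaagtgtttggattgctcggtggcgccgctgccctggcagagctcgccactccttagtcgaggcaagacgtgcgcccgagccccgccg
GBP1, chr1:89065159-89065458, minus strand: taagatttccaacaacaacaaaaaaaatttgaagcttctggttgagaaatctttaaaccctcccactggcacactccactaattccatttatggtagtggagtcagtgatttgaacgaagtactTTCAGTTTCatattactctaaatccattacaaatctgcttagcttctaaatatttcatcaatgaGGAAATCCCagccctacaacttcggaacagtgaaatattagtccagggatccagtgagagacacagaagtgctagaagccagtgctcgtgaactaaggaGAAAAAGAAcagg

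The letters of GAS were found in 7.66% of all 35093 promoter windows of the RefSeq table, those of the ISRE-type motif in 8.11% and those of the kappaB-type motif in 20.1%. Of the 13 chemokine genes tested, 9 had a window, and 2 of these windows held GAS letters, 4 the ISRE-type and 6 the kappaB-type letters. In the 45 windows of 34 interferon-stimulated antiviral genes, 31 held the ISRE-type letters (68.9%) and 10 the kappaB-type letters (22.2%). The kappaB-type letters were also in 3 of 5 windows of the guanylate-binding proteins and in 35.3% of the class I windows, lists with 0 lower genes, and in 23.1% of the class II windows, a list with 7 lower genes. The windows of the genes lower in D28WO, 1550 windows of 1104 genes, held GAS, ISRE-type and kappaB-type letters at 7.29%, 8.26% and 19.5%, near the shares over all windows. In the windows of all genes tested the shares were 6.5%, 6.92% and 22.0%. In the 232 windows of 151 genes higher in D28WO they were 5.17%, 3.02% and 18.5%. Differences between these shares were not tested. A match of letters describes the window and does not show that a factor binds there. Each motif was searched only by the pattern given, so a window without a match may still hold a site of other letters.

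Values were compared as log2(TPM + 1) with limma, and the threshold for a call was a p, adjusted by Benjamini-Hochberg, under 0.05 together with a log2 fold change (log2FC, D28WO minus D28) beyond 1 in either direction. This scale understates the change of genes at low TPM. On this rule 270 genes were higher in D28WO, 1.14% of those tested, and 2010 were lower, 8.48%, which together is 9.62%. The higher genes had a median log2FC of 1.33 and 41 of them exceeded 2, and the lower genes had a median of -1.41 and 368 of them lay below -2. With the adjusted p as the only criterion, 2468 genes (10.4%) were higher and 4618 (19.5%) lower. Every D28WO library lay above every D28 library in 16.0% of genes and below in 28.7%. With quantile normalization, 676 genes were higher and 1047 lower, so that 39.2% of the calls were higher against 11.8% without it. The median of all genes was -0.13, and 0.030 with quantile normalization, and changes of gene groups are read against it. Shares of called members in a list are to be read against the 1.14% and 8.48% of all genes. Both shares vary with level, and above 100 TPM they were 0.39% and 0.682%. Most class I, immunoproteasome and guanylate-binding protein genes lie above 100 TPM, where calls were thus rare in any case.

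**Figure D1:**
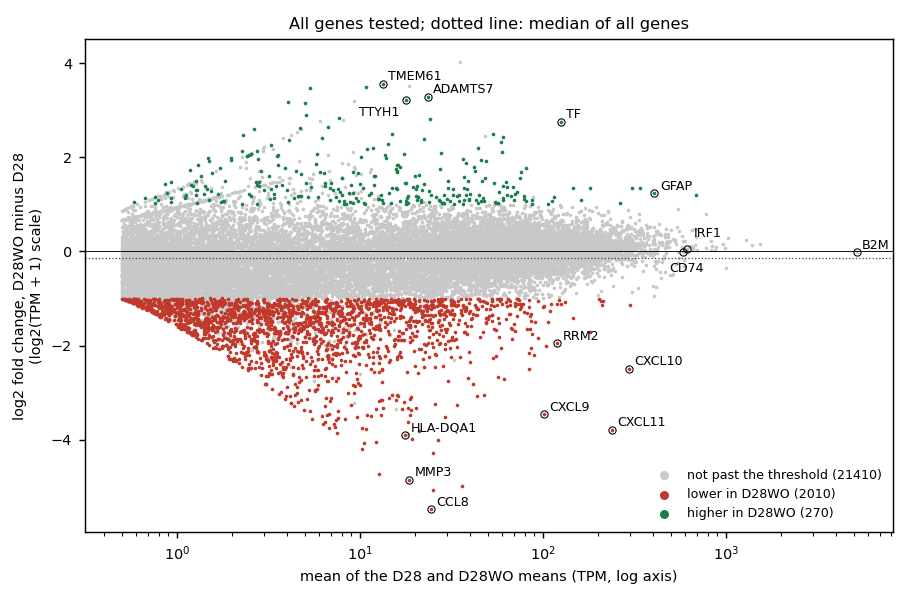
Each point is 1 of 23690 genes, with the mean of the D28 and D28WO means in TPM on a log axis and the log2FC (D28WO minus D28) on the vertical axis, green for the 270 higher and red for the 2010 lower genes. Lower genes are frequent between 1 and 20 TPM, CXCL9, CXCL10 and CXCL11 lie among the lowest values near or above 100 TPM, and B2M, IRF1 and CD74 lie close to 0.

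D28WO libraries, in which the lower calls prevail, also listed fewer genes. D28 libraries listed 29651 ± 651 genes above 0 (SD, n = 3) and D28WO libraries 26021 ± 373, without overlap, an exact permutation p of 0.1, which is the smallest that 3 against 3 libraries allow. Olfactory receptor genes, which a glioma cell line should not use, averaged 0.158 ± 0.029 TPM in D28 and 0.0984 ± 0.016 TPM in D28WO (SD, n = 3 each, exact permutation p = 0.1, two-sided). For orientation, the Untreated libraries listed 27187, 25773 and 24450 genes above 0, with olfactory receptor means of 0.121, 0.0895 and 0.0696 TPM. The D28WO libraries lay within both of these ranges. By mean level, 5.78% of genes were lower in D28WO at 0.5 to 1 TPM, 15.1% at 1 to 5 TPM, 16.2% at 5 to 20 TPM, 3.92% at 20 to 100 TPM and 0.682% above 100 TPM. Long noncoding RNAs were lower in 709 of 6349 cases (11.2%) and protein coding genes in 1137 of 14878 (7.64%). The part of detection in the lower calls was not tested. TPM keeps no sequencing depth. The study's methods state a minimum per sample, but the depth of each library is unknown here, and no limit can be set on a gene listed at 0. In bulk RNA, fewer cells that use a gene and less RNA of it per cell cannot be told apart.

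The levels of IFN-γ responsive genes do not follow the labelled exposure in every group. CIITA averaged 1.88 ± 0.727 TPM in the libraries labelled Untreated, 130.5 ± 5.85 in D3, 7.48 ± 0.622 in D14, 131 ± 7.57 in D28 and 102 ± 6.56 in D28WO (mean ± SD, n = 3 libraries, as in all values with ± in TPM here). In this gene the D14 libraries, labelled as under IFN-γ, thus lay below the D28WO libraries, labelled as without it for 14 days. The order held in all genes of the class I, class II, immunoproteasome and guanylate-binding protein lists, but not in the chemokine list (5 of 13 genes above and 5 below all D14 libraries) or the S phase list (1 above and 41 below, of 43). Over all genes tested, 16.8% had every D28WO library above every D14 library and 24.2% below. Groups were kept as labelled. Whether libraries were exchanged between D14 and D28WO was not tested, and every D28WO value given here depends on that label. Fitting the 6 libraries alone gave 260 higher and 1918 lower genes.

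**Figure D2:**
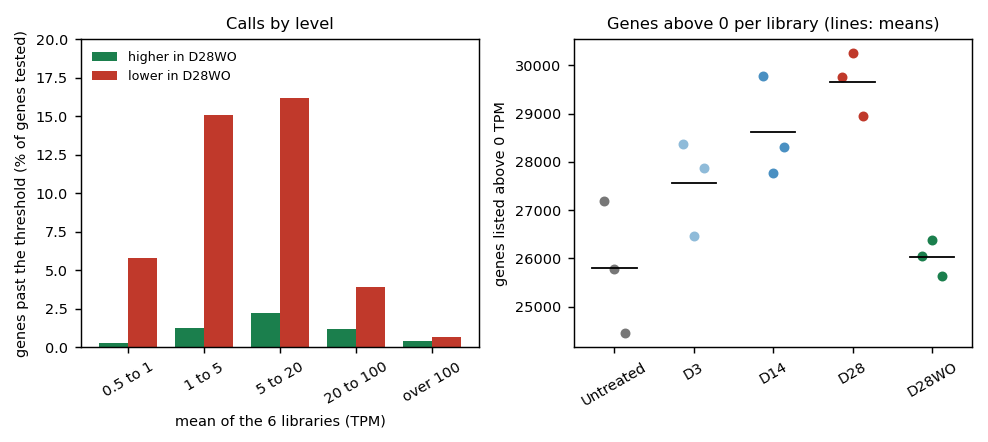
Left, the share of tested genes that were higher (green) or lower (red) in D28WO, as a percentage, by the mean of the 6 libraries in TPM. Right, genes listed above 0 in each library, with group means as lines; all 3 D28WO libraries lie below all 3 D28 libraries.

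None of the 11 tested genes of the receptor, JAK, STAT and IRF list passed the threshold, and their median log2FC was 0.16. With quantile normalization 1 of them, IRF7, passed as higher. IRF1 (GRCh38 chromosome 5, 132440440 to 132508719) was at 577, 559 and 674 TPM in the 3 D28 libraries and 609, 663 and 588 TPM in the 3 D28WO libraries, overlapping ranges (log2FC 0.043 ± 0.11 SE, limma, Benjamini-Hochberg adjusted p = 0.803). For orientation, Untreated cells held 141 ± 3.9 TPM of IRF1 and D14 cells 300.3 ± 18.4 TPM. The gene was thus listed in D28WO at a level above those of the untreated cells and of the day on which withdrawal began. JAK2 stood at 56.6 ± 7.03 TPM in D28 and 47.9 ± 0.965 TPM in D28WO (log2FC -0.23 ± 0.19 SE, limma, Benjamini-Hochberg adjusted p = 0.397). STAT3, which relays IL-6 type cytokines, was at 115 ± 4.99 TPM in D28 and 136 ± 3.16 TPM in D28WO (log2FC 0.23 ± 0.052 SE, limma, Benjamini-Hochberg adjusted p = 0.00415), a change under the size limit. IFNG itself was listed at 0 in all 15 libraries, a gene looked up after the values of the list were known.

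No class I antigen presentation gene passed the threshold, 0 of 14 tested, with a median log2FC of 0.075 that turned to -0.0049 with quantile normalization. B2M (chromosome 15, 44711358 to 44718851), the invariant light chain of class I molecules, was at 5443, 5277 and 4937 TPM in D28 and 5010, 5378 and 5085 TPM in D28WO (log2FC -0.017 ± 0.046 SE, limma, Benjamini-Hochberg adjusted p = 0.823). NLRC5, the co-activator of class I genes, was at 291 ± 41.6 TPM in D28 and 332 ± 9.68 TPM in D28WO (log2FC 0.20 ± 0.082 SE, limma, Benjamini-Hochberg adjusted p = 0.0915). Reads may be shared among HLA genes, which are near-identical in sequence, so single members are uncertain. The immunoproteasome, which cuts the peptides, also had 0 of 5 genes past the threshold and a median of 0.18. PSMB9 (chromosome 6, 32844136 to 32859851), one of its catalytic subunits, was at 219, 220 and 229.9 TPM in D28 and 279, 298 and 304 TPM in D28WO (log2FC 0.40 ± 0.052 SE, limma, Benjamini-Hochberg adjusted p = 7.99e-05), so all D28WO libraries were above all D28 libraries by less than the size limit. Among the 7 guanylate-binding proteins, interferon-induced GTPases that act on intracellular pathogens, 0 passed. GBP1, whose window is printed above, was at 456, 473 and 501 TPM in D28 and 461, 471 and 460.1 TPM in D28WO (log2FC -0.038 ± 0.068 SE, limma, Benjamini-Hochberg adjusted p = 0.711), and GBP5 at 573, 534 and 517 TPM in D28 and 604, 602 and 674 TPM in D28WO (log2FC 0.21 ± 0.10 SE, limma, Benjamini-Hochberg adjusted p = 0.15). Single paralogs of this family differed in sign, with GBP2 at 237 ± 8.52 TPM in D28 and 344 ± 18.2 TPM in D28WO (log2FC 0.53 ± 0.10 SE, limma, Benjamini-Hochberg adjusted p = 0.00161) and GBP6 at 12.8 ± 0.423 TPM in D28 and 7.42 ± 0.285 TPM in D28WO (log2FC -0.72 ± 0.18 SE, limma, Benjamini-Hochberg adjusted p = 0.00993).

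After 14 days without IFN-γ, all D28WO libraries were above all Untreated libraries in 14 of 14 class I genes, 5 of 5 immunoproteasome genes and 7 of 7 guanylate-binding proteins, against 21.7% of all genes tested. The same held for 15 of 15 class II genes and 40 of 40 interferon-stimulated antiviral genes. Against D14, the libraries from the day withdrawal began, all D28WO libraries were above all D14 libraries in 14 of 14, 5 of 5, 7 of 7 and 15 of 15 genes of these lists and in 37 of 40 antiviral genes, against 16.8% of all genes. These lists were picked for their known response to interferon, and no test was made of the counts. PSMB9 was at 69.9 ± 1.84 TPM in Untreated and 154 ± 7.13 TPM in D14, and GBP5 at 54.5 ± 5.15 and 113 ± 4.34 TPM.

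**Figure D3:**
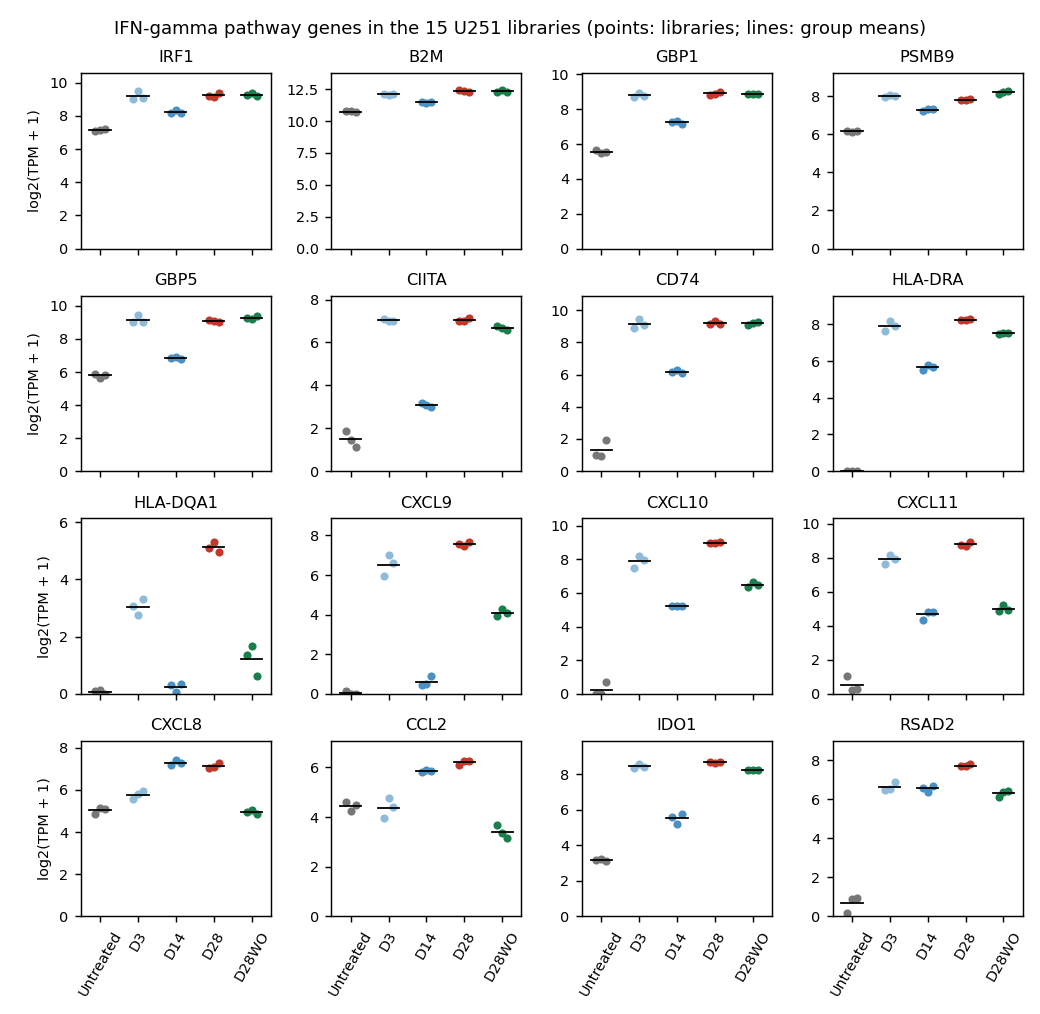
Levels of 16 pathway genes as log2(TPM + 1) in the 15 U251 libraries, by group, with points for libraries and lines for group means. IRF1, B2M, GBP1, GBP5 and CD74 sit at like levels in D28 and D28WO, CXCL9, CXCL10, CXCL11 and HLA-DQA1 lie lower in D28WO, and CXCL8 and CCL2 reach the Untreated level or below it.

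Several class II antigen presentation genes fell. Of 15 tested genes 7 were lower and 0 higher, all 15 had a negative log2FC and the median was -0.80, or -0.67 relative to all genes. HLA-DQA1 (chromosome 6, 32628179 to 32647062), an alpha chain of the DQ molecule, was at 33.2, 38.6 and 30.4 TPM in D28 and 1.57, 2.15 and 0.544 TPM in D28WO (log2FC -3.91 ± 0.26 SE, limma, Benjamini-Hochberg adjusted p = 2.06e-07). Its partner HLA-DQB1 (chromosome 6, 32659467 to 32668383) was at 73.4, 96.2 and 85.4 TPM in D28 and 23.6, 27.5 and 26.5 TPM in D28WO (log2FC -1.67 ± 0.22 SE, limma, Benjamini-Hochberg adjusted p = 6.91e-05). The D28WO libraries lay below all D28 libraries in both genes. HLA-DOA and HLA-DOB, which restrain peptide loading, were at 124 ± 13.3 and 26.6 ± 0.874 TPM in D28. In D28WO they were at 48.5 ± 6.5 (log2FC -1.33 ± 0.30 SE, limma, Benjamini-Hochberg adjusted p = 0.00392) and 7.38 ± 1.75 TPM (log2FC -1.74 ± 0.22 SE, limma, Benjamini-Hochberg adjusted p = 5.42e-05). HLA-DRB5 fell from 29.2 ± 1.34 to 9.91 ± 1.02 TPM (log2FC -1.48 ± 0.22 SE, limma, Benjamini-Hochberg adjusted p = 2.09e-04), although this gene may share reads with HLA-DRB1. HLA-DRB1 fell from 289.9 ± 5.84 to 138 ± 5.37 TPM (log2FC -1.06 ± 0.12 SE, limma, Benjamini-Hochberg adjusted p = 2.52e-05), and CTSS, the protease that trims the invariant chain, from 282 ± 4.53 to 136 ± 9.4 TPM (log2FC -1.05 ± 0.081 SE, limma, Benjamini-Hochberg adjusted p = 7.37e-07). The calls of HLA-DRB1 and CTSS were lost with median-ratio size factors, at -0.97 and -0.97, that of HLA-DRB1 also with a pseudocount of 0.1 (-1.07), and that of CTSS also without D28WO replicate 1 (-0.996).

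The remaining 8 class II genes were not past the threshold. HLA-DRA (chromosome 6, 32439878 to 32445046), the constant chain of the DR molecule, was at 296, 304 and 308 TPM in D28 and 179, 186 and 183 TPM in D28WO (log2FC -0.73 ± 0.11 SE, limma, Benjamini-Hochberg adjusted p = 1.93e-04). HLA-DPA1 and HLA-DMB showed log2FC of -0.75 and -0.80 (limma, Benjamini-Hochberg adjusted p = 6.23e-04 and 2.50e-04). CIITA (chromosome 16, 10866222 to 10943021), the co-activator of the group, was at 126, 126 and 139 TPM in D28 and 109, 101 and 95.9 TPM in D28WO (log2FC -0.36 ± 0.14 SE, limma, Benjamini-Hochberg adjusted p = 0.0713). The D28WO libraries of CIITA were all below the D28 libraries, and far above D14 at 7.48 ± 0.622 TPM and Untreated at 1.88 ± 0.727 TPM. CD74 (chromosome 5, 150401637 to 150412969), the invariant chain, was at 560.5, 631 and 575 TPM in D28 and 549, 599 and 609.5 TPM in D28WO, overlapping ranges (log2FC -0.0073 ± 0.21 SE, limma, Benjamini-Hochberg adjusted p = 0.985). Within the class II list, HLA-DQA1 thus changed most and CD74 least, by log2FC.

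Of the interferon lists, chemokines had the largest share of lower genes. Of 13 tested members 9 were lower (69.2%, against 46.7% of the class II list) and 0 higher, with a median log2FC of -2.17, and 12 of 13 had all D28WO libraries below all D28 libraries, against 28.7% of all genes. The count was 9 whichever library was left out. Against the other groups, 9 of the 13 lay above all Untreated libraries in D28WO, against 21.7% of all genes, 5 above all D14 libraries, against 16.8%, and 5 below all D14 libraries, against 24.2%. CXCL9 (chromosome 4, 76001275 to 76007509), CXCL10 (chromosome 4, 76021118 to 76023497) and CXCL11 (chromosome 4, 76033682 to 76041415), neighbours on chromosome 4, encode the ligands of CXCR3, a chemokine receptor on T cells. CXCL9 was at 186, 174 and 203 TPM in D28 and 14.2, 18.2 and 15.9 TPM in D28WO (log2FC -3.46 ± 0.22 SE, limma, Benjamini-Hochberg adjusted p = 1.59e-07). CXCL10 was at 492, 498 and 521 TPM in D28 and 80.5, 101 and 86.3 TPM in D28WO (log2FC -2.49 ± 0.18 SE, limma, Benjamini-Hochberg adjusted p = 5.04e-07). CXCL11 was at 432, 418 and 494 TPM in D28 and 28.9, 36.2 and 29.4 TPM in D28WO (log2FC -3.79 ± 0.21 SE, limma, Benjamini-Hochberg adjusted p = 5.69e-08). All 3 genes fell without overlap, yet stayed in D28WO above the Untreated levels of 0.0276 ± 0.0479, 0.203 ± 0.351 and 0.503 ± 0.511 TPM. At D14 they were at 0.548 ± 0.30, 36.1 ± 0.529 and 24.7 ± 4.65 TPM, so all 3 genes were lower in the D14 libraries than after withdrawal. CXCL11 overlaps ART3 on the opposite strand, and the strand setting of the counting is not given in the sources used here.

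Chemokines that attract neutrophils and monocytes fell too, CXCL8 to near and CCL2 to below the level of untreated cells. CXCL8 (chromosome 4, 73740519 to 73743716), interleukin 8, was at 128, 134 and 153 TPM in D28, 29.9, 32 and 28.2 TPM in D28WO (log2FC -2.17 ± 0.11 SE, limma, Benjamini-Hochberg adjusted p = 2.51e-08) and 31.6 ± 3.21 TPM in Untreated. Its D14 level was 156 ± 14.5 TPM. CCL2 (chromosome 17, 34255274 to 34257208), which attracts monocytes, was at 68, 75.2 and 76 TPM in D28, 11.9, 9.17 and 7.97 TPM in D28WO (log2FC -2.81 ± 0.18 SE, limma, Benjamini-Hochberg adjusted p = 1.59e-07) and 20.9 ± 3.0 TPM in Untreated, and it was at 57.1 ± 2.23 TPM in D14. CCL8 (chromosome 17, 34319435 to 34321402), the largest fall of all protein coding genes named by the rule, was at 45.9, 46.8 and 54 TPM in D28 and 0.393, 0 and 0 TPM in D28WO (log2FC -5.48 ± 0.37 SE, limma, Benjamini-Hochberg adjusted p = 2.69e-07). It was listed at 0 in Untreated and at 0.203 ± 0.352 TPM in D14. CCL5 was at 23.2 ± 2.76 TPM in D28 and 4.17 ± 0.744 TPM in D28WO (log2FC -2.23 ± 0.32 SE, limma, Benjamini-Hochberg adjusted p = 1.67e-04). CXCL2 and CXCL3, which are near-identical to each other and may share reads, fell from 125 ± 12.2 and 82.4 ± 9.55 to 39.1 ± 2.04 and 37.2 ± 4.71 TPM, with log2FC of -1.64 and -1.13 (limma, Benjamini-Hochberg adjusted p = 9.02e-08 and 1.99e-06). Not past the threshold were CX3CL1, at 145 ± 3.72 TPM in D28 and 84.4 ± 2.56 TPM in D28WO (log2FC -0.78 ± 0.071 SE, limma, Benjamini-Hochberg adjusted p = 3.14e-06), CXCL16 at 106 ± 5.21 TPM in D28 and 128 ± 3.54 TPM in D28WO (log2FC 0.27 ± 0.12 SE, limma, Benjamini-Hochberg adjusted p = 0.10), CXCL12 and CCL20. In the printed windows, CXCL8, CXCL10 and CXCL11 hold kappaB-type letters, as does GBP1, which was not past the threshold. The windows of CXCL9 and IRF1 hold no match to that pattern, which does not show that they lack such a site.

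Of 22 interferon genes in the table, 12 were listed at 0 in all 6 compared libraries. IFNB1 (chromosome 9, 21077104 to 21077942), a type I interferon, was looked up after the values were seen and was past the threshold. It was at 6.26, 6.77 and 8.59 TPM in D28 and 2.04, 1.66 and 0.927 TPM in D28WO (log2FC -1.71 ± 0.24 SE, limma, Benjamini-Hochberg adjusted p = 1.23e-04). It was listed at 0 in the 3 Untreated libraries and at 3.51 ± 0.285 TPM in D14. D28WO was thus above Untreated, and the D3 libraries were at 1.8 ± 0.622 TPM.

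Of the 40 interferon-stimulated antiviral genes, 1 was lower and 0 higher past the threshold, and the median log2FC was 0.13. RSAD2 (chromosome 2, 6865557 to 6898239), which encodes the antiviral enzyme viperin, was at 208, 208 and 222 TPM in D28 and 69.3, 82.3 and 86.3 TPM in D28WO (log2FC -1.42 ± 0.17 SE, limma, Benjamini-Hochberg adjusted p = 4.53e-05). Its D14 level was 93.9 ± 10.6 TPM. CMPK2, the neighbour of RSAD2 on chromosome 2, was at 131 ± 13.5 TPM in D28 and 82.5 ± 11.7 TPM in D28WO (log2FC -0.66 ± 0.14 SE, limma, Benjamini-Hochberg adjusted p = 0.00263), and IFI6 at 578 ± 21.7 TPM in D28 and 410 ± 46.8 TPM in D28WO (log2FC -0.50 ± 0.12 SE, limma, Benjamini-Hochberg adjusted p = 0.00636). With the adjusted p as the only criterion, 12 of the 40 were higher and 4 lower in D28WO, against 10.4% and 19.5% of all genes. Among the higher ones, ISG15, a ubiquitin-like modifier, was at 315, 360.5 and 390.5 TPM in D28 and 428, 528 and 479 TPM in D28WO (log2FC 0.43 ± 0.099 SE, limma, Benjamini-Hochberg adjusted p = 0.00521). UBE2L6, the enzyme that conjugates ISG15, was at 209, 221 and 224 TPM in D28 and 307, 313 and 332 TPM in D28WO (log2FC 0.54 ± 0.071 SE, limma, Benjamini-Hochberg adjusted p = 7.55e-05), and MX1, an antiviral GTPase, at 239 ± 17.6 TPM in D28 and 334 ± 37.2 TPM in D28WO (log2FC 0.48 ± 0.13 SE, limma, Benjamini-Hochberg adjusted p = 0.0125). All D28WO libraries of these 3 genes lay above all D28 libraries, by less than 1 on the log2 scale.

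Negative regulators of the pathway had 0 of 9 genes past the threshold. SOCS1, which blocks JAK kinases, was at 41.3, 46.1 and 49.9 TPM in D28 and 63.8, 67.7 and 65.8 TPM in D28WO (log2FC 0.52 ± 0.14 SE, limma, Benjamini-Hochberg adjusted p = 0.0137), against 2.82 ± 0.0296 TPM in Untreated. SOCS2 was at 26.7, 28.3 and 27.6 TPM in D28 and 49.9, 49.2 and 49.9 TPM in D28WO (log2FC 0.83 ± 0.085 SE, limma, Benjamini-Hochberg adjusted p = 9.70e-06), and its Untreated level was 51.7 ± 3.02 TPM. Both were higher in every D28WO library than in any D28 library, under the size limit.

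Of 12 genes of checkpoints and tryptophan catabolism, 3 were lower (25.0%) and 0 higher. The kynurenine enzymes KYNU (chromosome 2, 142877657 to 143055833) and KMO fell, while IDO1, the first enzyme of the pathway, did not pass. KYNU was at 57.2, 61.7 and 53.7 TPM in D28 and 16.4, 19.2 and 14.9 TPM in D28WO (log2FC -1.72 ± 0.11 SE, limma, Benjamini-Hochberg adjusted p = 2.16e-07), close to 15.8 ± 0.827 TPM in Untreated. KMO was at 27.2, 17.6 and 15.9 TPM in D28 and 4.34, 3.27 and 2.63 TPM in D28WO (log2FC -2.25 ± 0.30 SE, limma, Benjamini-Hochberg adjusted p = 1.01e-04). IDO1 was at 411, 388 and 405 TPM in D28 and 303, 299 and 304 TPM in D28WO (log2FC -0.41 ± 0.11 SE, limma, Benjamini-Hochberg adjusted p = 0.00983), against 45.1 ± 8.42 TPM in D14 and 7.97 ± 0.371 TPM in Untreated. CD274 (chromosome 9, 5450503 to 5470566), which encodes PD-L1, was at 152, 165 and 137 TPM in D28 and 109.5, 112 and 106 TPM in D28WO (log2FC -0.46 ± 0.14 SE, limma, Benjamini-Hochberg adjusted p = 0.0212), and its neighbour PDCD1LG2 at 67.1 ± 2.63 TPM in D28 and 41.5 ± 2.35 TPM in D28WO (log2FC -0.68 ± 0.092 SE, limma, Benjamini-Hochberg adjusted p = 1.01e-04). CD47, a signal that restrains phagocytes, was at 259 ± 17.5 TPM in D28 and 177 ± 16.8 TPM in D28WO (log2FC -0.55 ± 0.089 SE, limma, Benjamini-Hochberg adjusted p = 4.19e-04). WARS1, the tryptophan tRNA ligase, was at 1281, 1172 and 1118 TPM in D28 and 1466, 1405 and 1352 TPM in D28WO (log2FC 0.24 ± 0.070 SE, limma, Benjamini-Hochberg adjusted p = 0.0179), and PVR at 177 ± 1.73 TPM in D28 and 229 ± 9.27 TPM in D28WO (log2FC 0.37 ± 0.048 SE, limma, Benjamini-Hochberg adjusted p = 6.83e-05). The third lower gene was LGALS9, at 98.1 ± 11 TPM in D28 and 48.8 ± 10.3 TPM in D28WO (log2FC -1.01 ± 0.22 SE, limma, Benjamini-Hochberg adjusted p = 0.00324). The call of LGALS9 was lost with median-ratio size factors (-0.92), array weights (-0.99), without D28 replicate 3 (-0.92) and without D28WO replicate 1 (-0.82).

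In the complement list 2 of 13 genes were lower (15.4%), among them C3. C3 (chromosome 19, 6677704 to 6730562), the central component, was at 367, 407 and 457 TPM in D28 and 167, 172 and 222 TPM in D28WO (log2FC -1.14 ± 0.13 SE, limma, Benjamini-Hochberg adjusted p = 3.17e-05). C3 was still above its Untreated level of 7.41 ± 0.693 TPM.

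**Figure D4:**
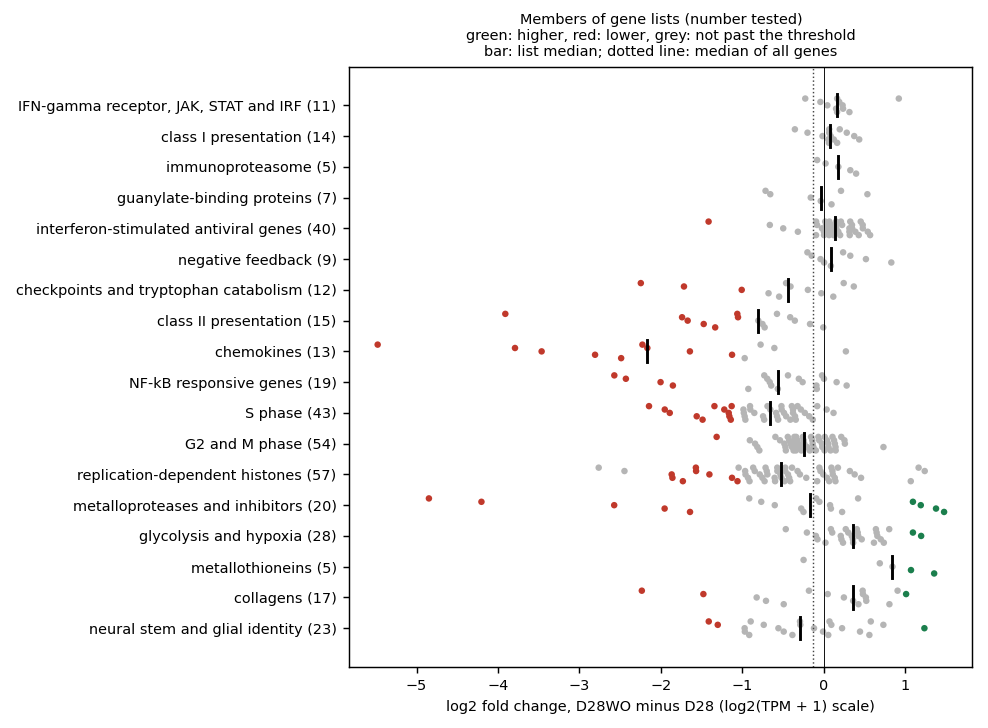
Log2FC (D28WO minus D28) of the tested members of 18 gene lists, with red for lower, green for higher and grey for genes not past the threshold, black bars for list medians and a dotted line at the median of all genes, -0.13. The first 6 interferon lists cluster around 0, while the chemokine median lies at -2.17 and the class II median at -0.80.

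Of 19 NF-kB responsive genes tested 4 were lower (21.1%) and 0 higher, with a median of -0.56. TRAF1 (chromosome 9, 120902393 to 120929173), an adaptor of TNF receptors, was at 22.6, 25.1 and 27.2 TPM in D28 and 6.4, 6.97 and 5.22 TPM in D28WO (log2FC -1.85 ± 0.13 SE, limma, Benjamini-Hochberg adjusted p = 3.24e-07). PTGS2, the inducible cyclooxygenase, was at 7.15, 5.96 and 5.06 TPM in D28 and 0.433, 0.329 and 0.152 TPM in D28WO (log2FC -2.43 ± 0.23 SE, limma, Benjamini-Hochberg adjusted p = 5.14e-06). IL1B fell from 6.92 ± 1.84 to 1.15 ± 1.19 TPM (log2FC -2.0 ± 0.39 SE, limma, Benjamini-Hochberg adjusted p = 0.00154) and CSF2 from 7.0 ± 2.66 to 0.322 ± 0.28 TPM (log2FC -2.57 ± 0.48 SE, limma, Benjamini-Hochberg adjusted p = 0.00119). Of the 26 windows of 16 of these genes, 14 held the kappaB-type letters (53.8%). The acute phase gene SAA2 (chromosome 11, 18239223 to 18248668) was at 21.7, 20.4 and 29.4 TPM in D28 and 0, 2.22 and 0 TPM in D28WO (log2FC -4.05 ± 0.47 SE, limma, Benjamini-Hochberg adjusted p = 2.54e-05). It lies close to a near-identical paralog, SAA1, with which reads can be shared.

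Metalloproteases split in direction, with 4 of 20 genes higher (20%, against 1.14% of all genes) and 5 lower (25.0%, against 8.48%). MMP3 (chromosome 11, 102835801 to 102843609) and MMP1 (chromosome 11, 102789401 to 102798160), neighbouring genes of matrix-degrading enzymes on chromosome 11, had the largest falls. MMP3 was at 34.7, 34.5 and 41.4 TPM in D28 and 0.148, 0.30 and 0.505 TPM in D28WO (log2FC -4.85 ± 0.21 SE, limma, Benjamini-Hochberg adjusted p = 8.12e-09). MMP1 was at 18.4, 20.2 and 22.4 TPM in D28 and 0.174, 0 and 0.307 TPM in D28WO (log2FC -4.2 ± 0.23 SE, limma, Benjamini-Hochberg adjusted p = 6.17e-08). Both were low in Untreated, at 0.866 ± 0.417 and 0.426 ± 0.267 TPM, and intermediate at D14, at 18 ± 3.74 and 8.3 ± 1.86 TPM. ADAMTS1, which cleaves proteoglycans, fell from 17.1 ± 2.21 to 2.02 ± 0.192 TPM (log2FC -2.57 ± 0.16 SE, limma, Benjamini-Hochberg adjusted p = 1.18e-07). ADAMTS7 (chromosome 15, 78759206 to 78811464) went the other way, at 3.64, 3.4 and 3.7 TPM in D28 and 42.3, 46.6 and 41.9 TPM in D28WO (log2FC 3.28 ± 0.15 SE, limma, Benjamini-Hochberg adjusted p = 1.56e-08). It overlaps MORF4L1 on the opposite strand.

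The other large falls were NOG, ANKFN1, OR2I1P and TEX29. NOG (chromosome 17, 56593699 to 56595611), a secreted antagonist of BMPs, was at 18.3, 22.7 and 21.5 TPM in D28 and 0.14, 0.425 and 0.318 TPM in D28WO (log2FC -4.08 ± 0.29 SE, limma, Benjamini-Hochberg adjusted p = 4.41e-07). ANKFN1 (chromosome 17, 55882301 to 56517016), on the same chromosome, was at 18, 15 and 11.9 TPM in D28 and 0.0643, 0.216 and 0 TPM in D28WO (log2FC -3.85 ± 0.20 SE, limma, Benjamini-Hochberg adjusted p = 3.28e-08). OR2I1P (chromosome 6, 29550407 to 29557773) was at 38.3, 39.6 and 42.4 TPM in D28 and 2.06, 2.03 and 1.65 TPM in D28WO (log2FC -3.82 ± 0.29 SE, limma, Benjamini-Hochberg adjusted p = 7.51e-07). It overlaps UBD on the opposite strand, an interferon-induced ubiquitin-like gene that was at 98.7 ± 9.84 TPM in D28 and 14.8 ± 2.42 TPM in D28WO (log2FC -2.66 ± 0.25 SE, limma, Benjamini-Hochberg adjusted p = 4.00e-06). Reads of the 2 genes cannot be told apart without the strand, and UBD was looked up after the values were seen. TEX29 was at 16.2, 24.9 and 22 TPM in D28 and 0.501, 1.67 and 0 TPM in D28WO (log2FC -3.77 ± 0.34 SE, limma, Benjamini-Hochberg adjusted p = 2.70e-06).

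Some genes of DNA replication fell in D28WO. Of 43 S phase genes 11 were lower (25.6%) and 0 higher, 41 had a negative log2FC, 37 were lower by the adjusted p alone, against 19.5% of all genes, and the median was -0.66, or -0.53 relative to all genes. RRM2 (chromosome 2, 10120698 to 10211725), a subunit of ribonucleotide reductase, was at 178, 184 and 215 TPM in D28 and 48.1, 53.6 and 44.9 TPM in D28WO (log2FC -1.95 ± 0.10 SE, limma, Benjamini-Hochberg adjusted p = 3.01e-08). CCNE2, cyclin E2, was at 30.7, 32.4 and 49.7 TPM in D28 and 5.57, 10.4 and 7.26 TPM in D28WO (log2FC -2.15 ± 0.23 SE, limma, Benjamini-Hochberg adjusted p = 1.08e-05). CDC45, which helps to unwind DNA at replication origins, was at 49.7, 58.5 and 47.7 TPM in D28 and 10.8, 16.9 and 12.6 TPM in D28WO (log2FC -1.89 ± 0.15 SE, limma, Benjamini-Hochberg adjusted p = 1.04e-06). These 3 genes were also below their Untreated levels of 174 ± 9.64, 50.5 ± 6.09 and 44.8 ± 5.41 TPM. Of 54 genes of G2 and M phase 1 was lower and 0 higher, or 2 lower without D28WO replicate 2, with a median of -0.25. By the adjusted p alone 21 of the 54 were lower and 2 higher, against 19.5% and 10.4% of all genes. The gene past the threshold was CDCA3, at 57 ± 4.79 TPM in D28 and 22.3 ± 2.0 TPM in D28WO (log2FC -1.32 ± 0.11 SE, limma, Benjamini-Hochberg adjusted p = 1.39e-06). No test was made of a difference between these lists.

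Of 16 G1 cyclins and CDK inhibitors 5 were lower (31.2%) and 1 higher, the latter call being lost without D28 replicate 3 or D28WO replicate 1. E2F1, which activates S phase genes, was at 60.6, 59.3 and 67.5 TPM in D28 and 24.9, 25 and 21.5 TPM in D28WO (log2FC -1.36 ± 0.093 SE, limma, Benjamini-Hochberg adjusted p = 2.89e-07). CCNE1, cyclin E1, was at 24.3 ± 0.905 TPM in D28 and 8.88 ± 1.07 TPM in D28WO (log2FC -1.36 ± 0.11 SE, limma, Benjamini-Hochberg adjusted p = 1.07e-06). CDKN1A (chromosome 6, 36676460 to 36687337), which encodes the CDK inhibitor p21, fell as well, from 68.4, 70.9 and 82.2 TPM to 24.8, 31.8 and 26.8 TPM (log2FC -1.38 ± 0.089 SE, limma, Benjamini-Hochberg adjusted p = 1.76e-07). Of 15 p53 targets, 2 were lower (CDKN1A and PLK3) and 1 higher. PLK3 was at 51.6 ± 4.58 TPM in D28 and 17.1 ± 2.51 TPM in D28WO (log2FC -1.55 ± 0.16 SE, limma, Benjamini-Hochberg adjusted p = 8.54e-06), and BTG2, an antiproliferative gene, rose from 8.43, 10.2 and 8.74 to 27.3, 26.7 and 25.9 TPM (log2FC 1.45 ± 0.14 SE, limma, Benjamini-Hochberg adjusted p = 7.14e-06). Replication-dependent histone genes had 8 of 57 lower (14.0%) and 0 higher, with 5 lower without D28WO replicate 3. H2BC4 was at 49.8, 47.3 and 44.1 TPM in D28 and 16, 18.2 and 12 TPM in D28WO (log2FC -1.57 ± 0.35 SE, limma, Benjamini-Hochberg adjusted p = 0.0037), and H2BC15 at 12.9 ± 1.94 TPM in D28 and 2.9 ± 1.08 TPM in D28WO (log2FC -1.86 ± 0.27 SE, limma, Benjamini-Hochberg adjusted p = 1.93e-04). Histone genes are paralogs of near-identical sequence, and their mature RNAs carry no poly(A) tail, so single members are uncertain.

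The list of immediate early and related genes had 3 of 23 genes lower (13%, against 8.48% of all genes), 0 higher and a median of 0.028, with 12 positive and 11 negative values. That median was -0.074 without D28 replicate 1 and -0.10 without D28WO replicate 3. DUSP6 (chromosome 12, 89347235 to 89352501), a phosphatase of ERK, was at 87.3, 99.1 and 90.9 TPM in D28 and 20.1, 22.8 and 15.1 TPM in D28WO (log2FC -2.22 ± 0.16 SE, limma, Benjamini-Hochberg adjusted p = 4.99e-07), against 40 ± 3.38 TPM in Untreated. SPRY4, an inhibitor of receptor tyrosine kinase signaling, was at 37.7, 42.4 and 40.9 TPM in D28 and 15.5, 12.8 and 13.7 TPM in D28WO (log2FC -1.46 ± 0.12 SE, limma, Benjamini-Hochberg adjusted p = 1.81e-06). DUSP5 was at 45.1 ± 3.71 TPM in D28 and 17.4 ± 2.65 TPM in D28WO (log2FC -1.33 ± 0.19 SE, limma, Benjamini-Hochberg adjusted p = 1.54e-04). DUSP6, SPRY4 and DUSP5, which act as feedback on growth factor signaling, are the 3 lower genes. Of 23 growth factor receptors and ligands of glioma 5 were lower (21.7%, but 3 genes without D28WO replicate 2) and 1 higher. VEGFC, a ligand for lymphatic vessels, was at 54.6, 61.1 and 64 TPM in D28 and 23.2, 22.1 and 19.1 TPM in D28WO (log2FC -1.44 ± 0.10 SE, limma, Benjamini-Hochberg adjusted p = 4.61e-07), and NTRK2, a neurotrophin receptor, at 7.47 ± 0.80 TPM in D28 and 0.626 ± 0.199 TPM in D28WO (log2FC -2.38 ± 0.24 SE, limma, Benjamini-Hochberg adjusted p = 6.78e-06). PDGFRA (chromosome 4, 54229280 to 54298245), a receptor of glial progenitors, rose from 44.3, 37.7 and 43.9 TPM in D28 to 102, 96.3 and 98.5 TPM in D28WO (log2FC 1.22 ± 0.080 SE, limma, Benjamini-Hochberg adjusted p = 1.99e-07). It had been at 213 ± 10.7 TPM in Untreated.

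Among 25 genes of PI3K, AKT and mTOR signaling, of which 24 were tested, 1 was higher and 1 lower, with a median of 0.12. DDIT4 (chromosome 10, 72273919 to 72276036), a stress-induced inhibitor of mTORC1, was at 106, 107 and 92.2 TPM in D28 and 260.1, 261 and 257 TPM in D28WO (log2FC 1.34 ± 0.065 SE, limma, Benjamini-Hochberg adjusted p = 1.84e-08). The D28WO libraries also exceeded the Untreated mean of 132 ± 9.23 TPM. PIK3R3, a regulatory subunit of PI3K, was at 30.4 ± 0.521 TPM in D28 and 14.3 ± 0.537 TPM in D28WO (log2FC -1.04 ± 0.18 SE, limma, Benjamini-Hochberg adjusted p = 6.08e-04), and its call was lost with quantile normalization (-0.86) and median-ratio size factors (-0.95).

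Of 23 glial identity genes 1 was higher and 2 lower (8.70%, near the 8.48% of all genes), with 4 lower without D28 replicate 2 or 3. GFAP (chromosome 17, 44903159 to 44916937), the intermediate filament of astrocytes, was at 222, 253 and 255 TPM in D28 and 574, 574 and 570.2 TPM in D28WO (log2FC 1.23 ± 0.091 SE, limma, Benjamini-Hochberg adjusted p = 5.30e-07). Its Untreated level was 1258 ± 46.3 TPM, above both arms. HEY1, a Notch target, fell from 118 ± 4.02 to 47.2 ± 2.01 TPM (log2FC -1.3 ± 0.071 SE, limma, Benjamini-Hochberg adjusted p = 5.69e-08), and NCAM1, a neural adhesion molecule, from 83.5 ± 5.07 to 31.1 ± 5.86 TPM (log2FC -1.41 ± 0.13 SE, limma, Benjamini-Hochberg adjusted p = 2.60e-06). SOX2, a stem cell factor, was at 116 ± 6.43 TPM in D28 and 173 ± 3.05 TPM in D28WO (log2FC 0.58 ± 0.084 SE, limma, Benjamini-Hochberg adjusted p = 1.89e-04). Of 25 mesenchymal genes 2 were lower (8.00%, near the share of all genes) and 0 higher, and by the adjusted p alone 7 were higher and 7 lower, against 10.4% and 19.5% of all genes, with a median of 0.11. CHI3L1 is 1 of the 2. CHI3L1 (chromosome 1, 203178931 to 203186704), a secreted marker of the mesenchymal state, was at 76.6, 91.4 and 99.5 TPM in D28 and 15.9, 18.9 and 18.4 TPM in D28WO (log2FC -2.26 ± 0.15 SE, limma, Benjamini-Hochberg adjusted p = 1.98e-07). In the collagens, 2 of 17 were lower (11.8%) and 1 higher, a call lost with array weights and without D28 replicate 1, D28 replicate 3 or D28WO replicate 2. Among the lower ones was COL13A1, a transmembrane collagen, which fell from 36.6, 42.4 and 40.9 to 4.86, 9.24 and 9.93 TPM (log2FC -2.23 ± 0.20 SE, limma, Benjamini-Hochberg adjusted p = 2.57e-06).

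The 10 largest rises named by the rule were TMEM61, ADAMTS7, TTYH1, PRTN3, TMPRSS5, TF, LRRC10B, CLSTN2, TKTL1 and BAALC. TF (chromosome 3, 133746040 to 133796641), transferrin, which carries iron, was at 26.4, 37.1 and 31.9 TPM in D28 and 219, 223 and 214 TPM in D28WO (log2FC 2.76 ± 0.16 SE, limma, Benjamini-Hochberg adjusted p = 7.63e-08). Its D28WO libraries also lay above Untreated, at 138 ± 5.54 TPM. The gene overlaps SRPRB on the same strand. TKTL1 (chromosome X, 154295795 to 154330350), a transketolase-like gene, was at 18, 16.4 and 12.8 TPM in D28 and 92.8, 85.1 and 97.8 TPM in D28WO (log2FC 2.48 ± 0.11 SE, limma, Benjamini-Hochberg adjusted p = 1.19e-08), again above the 72.6 ± 2.72 TPM of Untreated. CLSTN2, a synaptic adhesion gene, was at 3.82, 4.28 and 3.36 TPM in D28 and 28.1, 24.1 and 25.9 TPM in D28WO (log2FC 2.49 ± 0.18 SE, limma, Benjamini-Hochberg adjusted p = 5.16e-07). TTYH1 (chromosome 19, 54415219 to 54436904), a membrane protein of neural and glioma cells, was at 1.72, 3.13 and 3.41 TPM in D28 and 34.7, 34.4 and 30.6 TPM in D28WO (log2FC 3.22 ± 0.23 SE, limma, Benjamini-Hochberg adjusted p = 4.29e-07), below 83.2 ± 16.5 TPM in Untreated. BAALC, known from brain and leukemia, was at 15.5, 21.2 and 18.2 TPM in D28 and 111, 94 and 103 TPM in D28WO (log2FC 2.43 ± 0.14 SE, limma, Benjamini-Hochberg adjusted p = 7.63e-08), against 218 ± 17.8 TPM in Untreated. TMPRSS5, a membrane serine protease, was at 5.33, 5.66 and 4.74 TPM in D28 and 41, 48.2 and 40 TPM in D28WO (log2FC 2.82 ± 0.19 SE, limma, Benjamini-Hochberg adjusted p = 2.07e-07). TMEM61 had the largest log2FC, and its D28 libraries were at 7.8e-09, 0.996 and 4.25 TPM, a wide spread, against 25.9, 20.6 and 28.3 TPM in D28WO (log2FC 3.56 ± 0.42 SE, limma, Benjamini-Hochberg adjusted p = 3.04e-05). PRTN3 and LRRC10B rose from 1.19 ± 0.594 and 1.12 ± 0.26 to 14.3 ± 1.31 and 12.2 ± 0.796 TPM, with log2FC of 2.83 and 2.64 (limma, Benjamini-Hochberg adjusted p = 1.06e-05 and 6.82e-06).

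**Figure D5:**
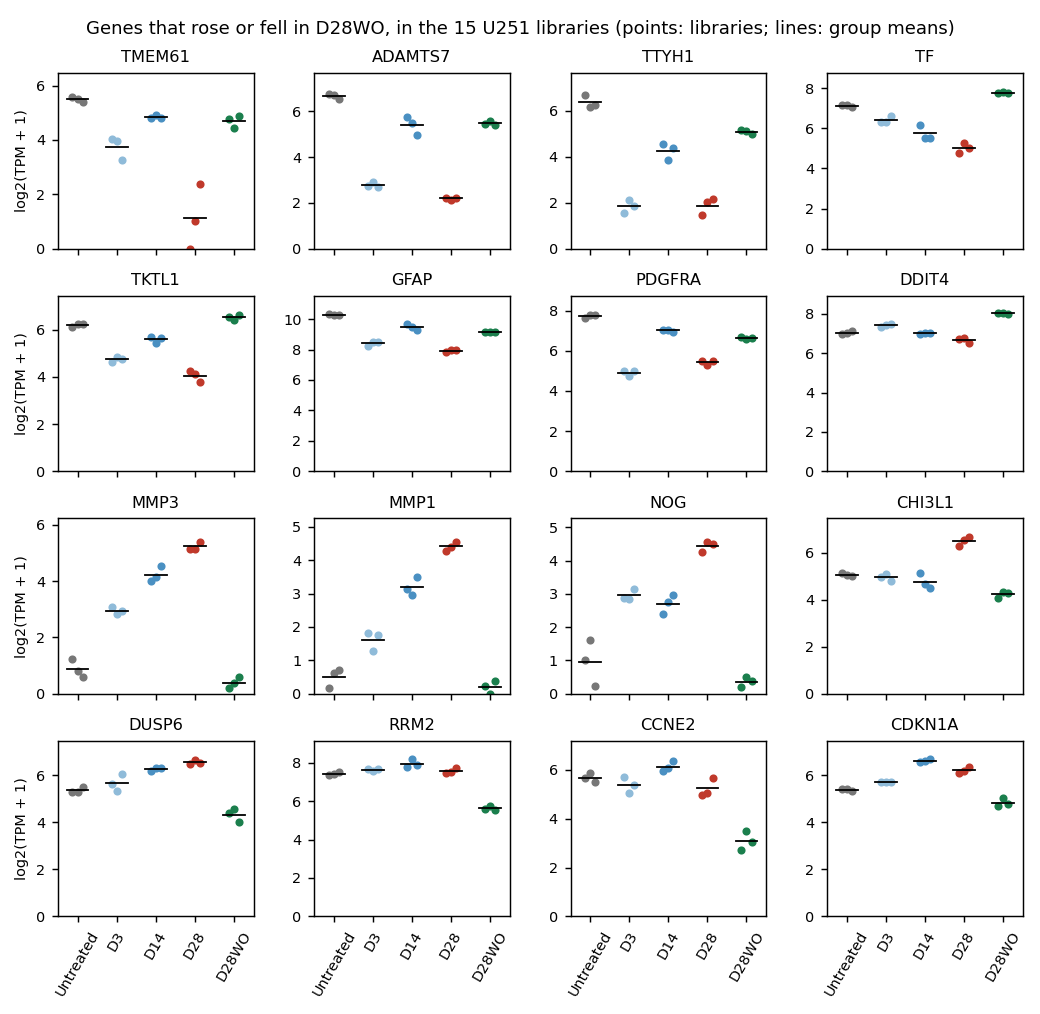
Levels of 16 genes past the threshold as log2(TPM + 1) in the 15 U251 libraries, by group, with points for libraries and lines for group means. ADAMTS7, TTYH1 and GFAP rose to between their D28 and Untreated levels, TF and TKTL1 exceeded Untreated, and DUSP6, RRM2, CCNE2 and CDKN1A fell below it.

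Of 28 genes of glycolysis and hypoxia 2 were higher (7.14%, against 1.14% of all genes) and 0 lower, 19 were higher by the adjusted p alone, against 10.4% of all genes, and the median was 0.36, or 0.49 relative to all genes. NDRG1, a hypoxia-induced gene, was at 426, 369 and 459.8 TPM in D28 and 1008, 898 and 962 TPM in D28WO (log2FC 1.19 ± 0.10 SE, limma, Benjamini-Hochberg adjusted p = 1.88e-06). CA9, carbonic anhydrase 9, was at 87.4, 112 and 112 TPM in D28 and 209, 227 and 227 TPM in D28WO (log2FC 1.09 ± 0.12 SE, limma, Benjamini-Hochberg adjusted p = 1.52e-05), and its log2FC was 0.98 without D28 replicate 1. Metallothioneins, which bind zinc and other metals, were higher in 2 of 5 genes. MT1E was at 201, 174 and 148 TPM in D28 and 426, 448 and 458 TPM in D28WO (log2FC 1.35 ± 0.18 SE, limma, Benjamini-Hochberg adjusted p = 9.10e-05), and MT1F at 75.4, 67.8 and 73.4 TPM in D28 and 149, 148 and 161 TPM in D28WO (log2FC 1.07 ± 0.13 SE, limma, Benjamini-Hochberg adjusted p = 3.49e-05). These genes are near-identical neighbours, so reads may be shared between them. The 85 cytosolic ribosomal protein genes had 0 calls and a median of 0.20, with 50 higher by the adjusted p alone, against 10.4% of all genes. Their lower calls numbered 1 with a pseudocount of 0.1, with array weights, and without D28 replicate 1 or 3. Among 27 genes of the unfolded protein and ATF4 response, 22 nucleolar genes and 80 nuclear genes of the respiratory chain, 0 passed the threshold, with medians of 0.092, -0.17 and 0.032, the last of which was 0.12 with median-ratio size factors and -0.025 with quantile normalization.

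The markers of other cell types are given as a check of the label. Of 20 immune cell markers 9 could be tested and 0 passed, with a summed level of 149.5 to 191.5 TPM in D28 and 102 to 121 TPM in D28WO, most of it CD68. CD2 and TYROBP were listed at 0 in the 6 libraries. Of 7 endothelial markers 4 were tested and 0 passed, with summed levels of 5.55 to 8.05 and 5.61 to 10.5 TPM. Of 9 markers of neurons and oligodendrocytes 8 were tested, 1 was higher (12.5%) and 2 lower (25.0%), with summed levels of 80.4 to 100.9 and 95.4 to 101.8 TPM. Of 10 glioma line markers 1 was higher (GFAP) and 1 lower (NCAM1), 10.0% each, against 1.14% and 8.48% of all genes. By the adjusted p alone 3 were higher and 4 lower, against 10.4% and 19.5% of all genes. Their log2FC were positive in 5 and negative in 5. Among them, CD44 was at 449 ± 7.83 TPM in D28 and 481 ± 49 TPM in D28WO (log2FC 0.092 ± 0.086 SE, limma, Benjamini-Hochberg adjusted p = 0.455), and OLIG2 at 1.1 ± 0.275 TPM in D28 and 0.118 ± 0.205 TPM in D28WO (log2FC -0.92 ± 0.23 SE, limma, Benjamini-Hochberg adjusted p = 0.00844). The part of other cells in the results was not tested.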

How the data were processed

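RNA sequencing of U251 cells was analysed from 1 table of TPM for 61471 genes and 15 libraries. The authors deposited these TPM values after FastQC, Trim Galore, STAR and featureCounts on GRCh38, per the labels and the study's methods. How TPM was computed and whether counting used strand are not given in the sources used here. Each library sums to the same total, so depth is unknown and the precision comes only from the 3 libraries a group. TPM divides by gene length, and a rise of some genes lowers others.

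D28WO and D28 were compared on log2(TPM + 1) with limma 3.58.1, run under R 4.3.3, as 1 linear model of 5 groups and 15 libraries without covariates, with trended empirical Bayes variances. Genes averaging 0.5 TPM or more across the 6 libraries entered. P-values were adjusted by Benjamini-Hochberg over 23690 genes. The procedure was tested on simulated data. Library measures were compared by exact permutation tests, two-sided. Of 61471 genes, 60385 matched 1 gene of GENCODE release 44, which gave positions and types (GRCh38). Promoter windows came from RefSeq, and 13558 of the tested genes had one.

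Members and lists were chosen with earlier results of these data known. The genes named are the 10 largest rises and 10 largest falls among protein coding genes past the threshold, without overlap between groups and with at least 5 TPM in the higher group. Up to 4 called members of each list, members of the interferon lists by role, and markers of cell types were named too. IFNG, IFNB1 and UBD were chosen after their values were seen, as was IRF7 for a change of call. The alternatives were another pseudocount, filters, normalizations, array weights, the replicate block, fewer libraries and another call rule. The U87 libraries were not used here, and some genes are not reported here.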

Additional observations from a re-analysis of the deposited data

How the results depend on the processing

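The higher and lower genes, 270 and 2010, numbered 676 and 1047 with quantile normalization, 2468 and 4618 with the adjusted p as the only criterion, and 189 and 945 with a mean of at least 5 TPM, where 14472 genes were tested. Among protein coding genes only, an alternative chosen after seeing the data, they were 210 and 1158. The other alternatives stayed within 1.5 times both counts, and leaving out 1 library gave 247 to 293 higher and 1767 to 1942 lower genes. Deviations of same-numbered libraries of the 2 arms had correlations of 0.018, 0.034 and -0.020. These values cannot show whether cultures were paired between the arms, because parentage need not follow the replicate number. The replicate block gave 275 higher and 1985 lower genes, or 246 and 1731 with the 6 libraries alone. The differences in genes above 0 and in olfactory receptor level ranged from -3978 to -3332 genes and from -0.076 to -0.050 TPM without 1 library. Of 75 called genes given in the text 69 kept the call under all 16 alternatives with a value, apart from CA9, CTSS, HLA-DRB1, INHBA, LGALS9 and PIK3R3. OLIG2 gained a call with a pseudocount of 0.1 (-2.83) and without D28 replicate 3 (-1.02) or D28WO replicate 3 (-1.06). Of the genes not past the threshold, 4 changed sign and none gained a call by it. With median-ratio size factors B2M was at 0.073, CD74 at 0.082 and GBP1 at 0.051, and with quantile normalization IRF1 was at -0.11 and B2M at 0.0. Without 1 library B2M ranged from -0.056 to 0.014, CD74 from -0.042 to 0.044 and IRF1 from -0.0094 to 0.125. The lower members of the NF-kB list were 1 with a mean of at least 5 TPM, those of the histone list 5 and of the growth factor list 3 with quantile normalization, and those of the glial list 5 with a pseudocount of 0.1. The lower members of the PI3K list were 0 with either normalization. Genes at a few TPM rest on values whose read support is unknown, and the cause of these shifts was not tested.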

Other observations

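Adhesion, TGF-beta and cell death lists, not described above, had lower calls near the share of all genes, 8.48%. Of 23 integrins and laminins 1 was higher and 2 lower (8.70%), of 20 ligands, receptors and targets of TGF-beta 0 were higher and 2 lower (10.0%), and of 13 death receptors and caspases 0 were higher and 1 lower (7.69%). Of the integrins and laminins 1 was lower without D28 replicate 2 or D28WO replicate 1, and 2 were higher without D28 replicate 2. With quantile normalization the lower members numbered 0, 1 and 0. ITGB8, an integrin chain that releases active TGF-beta, rose from 28.8, 26.7 and 24.8 TPM in D28 to 60.2, 61.8 and 65.8 TPM in D28WO (log2FC 1.2 ± 0.080 SE, limma, Benjamini-Hochberg adjusted p = 2.16e-07). INHBA, a chain of the TGF-beta family ligand activin A, was at 11.3 ± 1.72 TPM in D28 and 4.06 ± 0.116 TPM in D28WO (log2FC -1.28 ± 0.18 SE, limma, Benjamini-Hochberg adjusted p = 1.67e-04), a call lost with quantile normalization (-0.88).

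By type of gene, 39 long noncoding RNAs were higher (0.614%) and 203 protein coding genes (1.36%). Long noncoding RNAs made up 4.80% to 5.19% of the TPM of the D28 libraries and 3.89% to 4.03% of the D28WO libraries, while mitochondrial genes made up 0.369% to 0.553% and 0.471% to 0.487%. In the S phase list 8 of 47 promoter windows held the letters TTTGGCGC of an E2F-type motif (17.0%), against 0.653% of all windows of the RefSeq table.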
